A study of Mus musculus with 6 samples.

Results

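Interferon response genes are the genes that cells switch on when interferons, secreted signals of virus infection, bind their receptors. The receptor kinases activate transcription factors, among them STAT2, which with its partner IRF9 acts at a promoter element called the interferon-stimulated response element (ISRE). Interferon gamma acts mainly at another element, called the gamma-activated site (GAS). Fibroblasts are a classical cell type in which this response is studied. A set of 35 such genes was chosen by name, and 33 of them had at least 1 probe set named for them alone, among 18193 genes measured. *Isg15* and *Ifi44* had none and were not analysed here. The 33 genes had 51 probe sets (groups of short probes against the 3′ part of a transcript), and each gene was represented by the probe set with the highest mean over all 6 arrays.

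The arrays measured total RNA of tail tip fibroblasts from newborn mice, 3 samples that lacked *Hotair*, a long noncoding RNA of the Hoxc cluster, and 3 wild-type samples. Both groups came from mice backcrossed to C57BL6. No treatment is given for either group, so the values below are those of cells to which no interferon is recorded as added. The labels do not tell whether samples of a genotype were separate animals or cultures, and p-values then measure only how far these samples scatter, possibly for technical reasons. *Hotair* itself was not analysed here (0 probe sets carried its name), which leaves the loss of the RNA unchecked in the knockout arrays. In such bulk RNA, fewer cells of a type and less RNA per cell cannot be told apart.

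Replicate 1 of both genotypes stood apart from the other 4 arrays before any gene was considered. The first principal component held 48.9% of the variance, and on it knockout array 1 lay at −82.7 and wild-type array 1 at −114.7, and the other arrays lay between 39.3 and 74.7. The second component held 29.9%. On it knockout arrays 2 and 3 lay at 59.1 and 71.0, and wild-type arrays 2 and 3 at −75.3 and −66.0. Knockout array 1 lay at −0.7 and wild-type array 1 at 11.9. The array medians were between 5.57 and 5.68 on the log2 scale. Knockout array 1 also had a 3′ minus 5′ difference of 0.63 for the *Actb* controls and 0.75 for the *Gapdh* controls. Such a difference can come with RNA degradation, which was not tested. The other 5 arrays reached 0.21 and −0.03. The fibroblast marker *Col1a2*, a collagen chain, measured 14.35 to 14.68 in knockout and 14.35 to 14.56 in wild type. The fibroblast markers *Thy1* and *Lum*, named after their values were seen, were low on wild-type arrays 2 and 3. Others of the list were not, and of its 12 genes 9 lay higher and 3 lower in knockout. *Vim*, named likewise, measured 14.55, 14.40 and 14.41 in knockout against 14.80, 14.62 and 14.67 in wild type. *Fn1* and *S100a4* were highest on wild-type array 2. The surface protein gene *Thy1* measured 11.71, 10.54 and 10.28 in knockout against 12.15, 4.65 and 7.17 in wild type. The proteoglycan gene *Lum* measured 10.46, 8.77 and 8.56 in knockout against 8.79, 5.03 and 6.06 in wild type.

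Promoters of 28 of the 35 genes were found in the RefSeq table of build GRCm38.p6, as windows of 300 bases that end 50 bases after the transcript start. The ISRE core was searched as GAAA, any 2 bases and GAAA, and the GAS as TTCNNNGAA, on both strands. The ISRE core was present in a window of 14 of these genes, 50%, against 3.99% of all 27025 genes in the table. The GAS was present for 8 genes, 28.6%, against 9.55% of all genes. A match is only a run of letters, and no binding was measured here. The stretches below hold the ISRE core, in capitals, in 5 genes that were high on both replicate 1 arrays and in *Irgm1*, which was not. Overlapping copies share capitals, and the stretches lie upstream of the start, 5′ to 3′ on the gene's own strand.
*Ifit1* (chr19:34640760-34640838, plus strand): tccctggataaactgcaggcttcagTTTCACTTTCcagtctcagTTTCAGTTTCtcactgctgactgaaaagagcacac
*Ifit3* (chr19:34583348-34583441, plus strand): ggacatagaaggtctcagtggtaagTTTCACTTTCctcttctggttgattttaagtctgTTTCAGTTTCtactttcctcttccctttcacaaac
*Bst2* (chr8:71537562-71537627, minus strand): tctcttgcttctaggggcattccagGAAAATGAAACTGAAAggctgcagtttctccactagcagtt
*Gbp2* (chr3:142620579-142620638, plus strand): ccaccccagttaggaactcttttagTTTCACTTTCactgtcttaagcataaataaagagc
*Igtp* (chr11:58199497-58199555, plus strand): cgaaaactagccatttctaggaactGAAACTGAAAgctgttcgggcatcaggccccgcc
*Irgm1* (chr11:48871421-48871475, minus strand): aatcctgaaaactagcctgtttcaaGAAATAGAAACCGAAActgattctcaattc

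The next stretches hold the GAS, in capitals, in 4 genes described below. The choice of genes ties neither element to a pattern: *Bst2* and *Igtp* also hold a GAS, not marked here. *Eif2ak2* also holds an ISRE core, which lies after the transcript start and outside the stretch shown. Without both replicate 1 arrays (below), limma also called *Irgm1*, which holds no GAS, and *Trim25* and *Xaf1*, which hold neither element. *Dhx58*, called too, had no promoter in the table. *Ifit2*, *Bst2*, *Igtp* and *Ifi35* hold a GAS and were not called. That fit called 14.0% of all genes. *Psmb8* was also highest on replicate 1 of both genotypes.
*Irf1* (chr11:53769899-53769957, plus strand): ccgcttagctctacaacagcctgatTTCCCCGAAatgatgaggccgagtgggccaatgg
*Psmb8* (chr17:34198073-34198131, plus strand): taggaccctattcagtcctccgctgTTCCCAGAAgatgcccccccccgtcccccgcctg
*Eif2ak2* (chr17:78882717-78882775, minus strand): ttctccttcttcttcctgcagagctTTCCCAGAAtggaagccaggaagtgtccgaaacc
*Isg20* (chr7:78913326-78913384, plus strand): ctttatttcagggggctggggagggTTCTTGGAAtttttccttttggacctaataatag

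The set did not shift as a whole between genotypes. Of the 33 genes, 20 lay higher and 13 lower in knockout, with a median difference of 0.09 on the log2 scale, against a median of 0.01 over all genes. By limma with Benjamini-Hochberg adjustment over all genes, 0 of the 33 had an adjusted p under 0.05 (smallest 0.743), and 0% of all genes did. At an unadjusted p under 0.05 there were 5, 3 higher (*Eif2ak2*, *Irf1* and *Dhx58*) and 2 lower (*Irgm1* and *Isg20*). Among all genes 6.68% passed by the same fit, 4.01% higher and 2.67% lower. The ordinary equal-variance test gave 3 of the 33, and the share of all genes by that test is not given here. With the replicate block there were 6, 5 higher and 1 lower, against 11.1% of all genes: *Isg20* was no longer among them, and *Ifih1* and *Igtp* were. The 3 knockout values lay wholly above the wild-type values for 3 genes and wholly below for 1, against 5.56% and 4.38% of all genes. Within replicates 1, 2 and 3 the members' median was 0.13, 0.05 and 0.09. The median turned to −0.11 without knockout array 1, −0.05 without wild-type array 2 and −0.04 without wild-type array 3, and it was 0.42 without wild-type array 1 and 0.23 without knockout array 2.

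**Figure D1:**
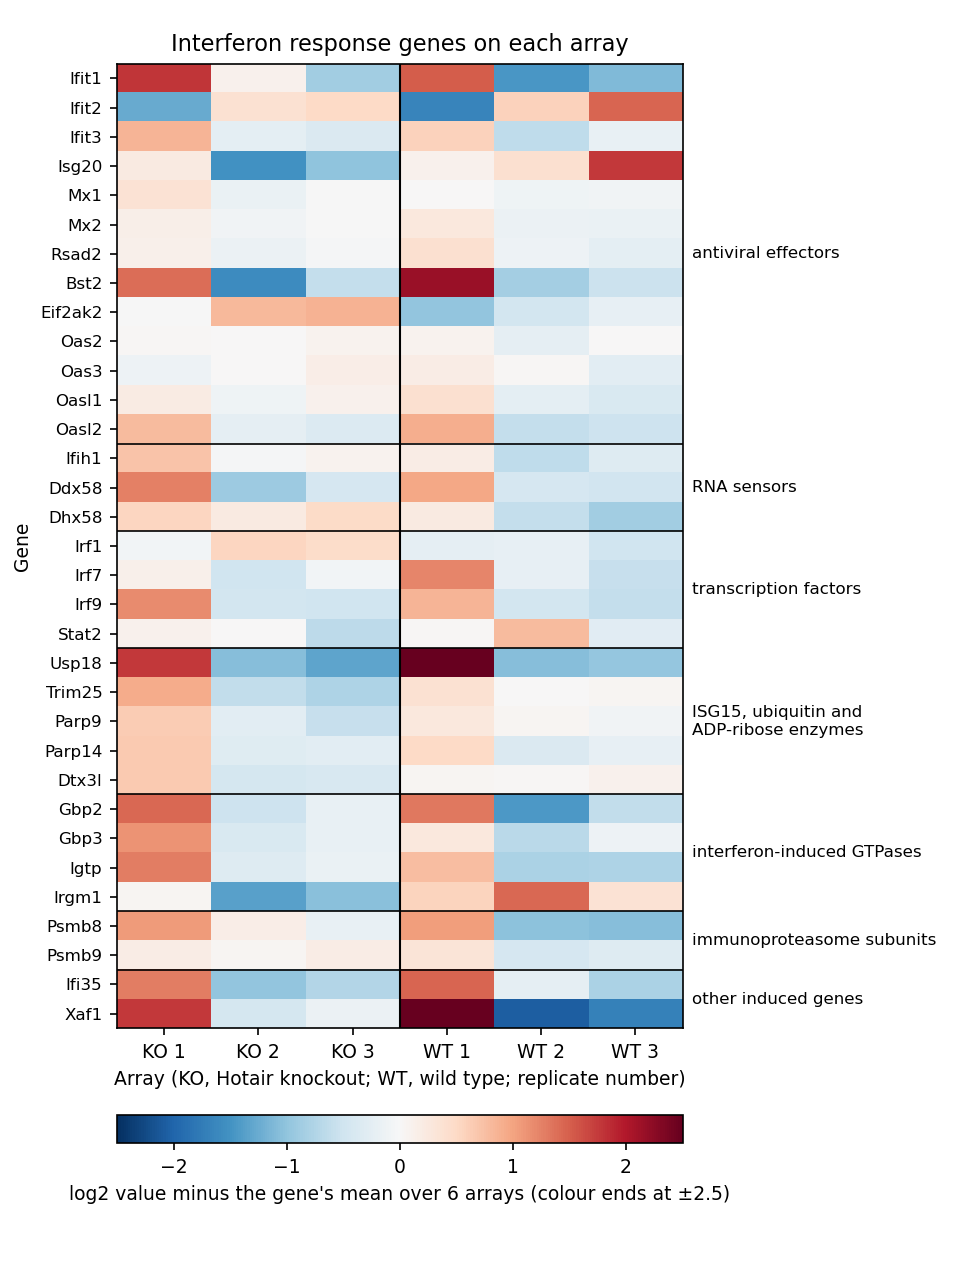
Heat map of the 33 interferon response genes (rows, grouped by role) on the 6 arrays (columns, knockout left of wild type), coloured by the log2 value minus the gene's mean over 6 arrays. Most rows are red on replicate 1 of both genotypes, while *Eif2ak2*, *Irf1*, *Irgm1* and *Isg20* follow genotype more than replicate number.

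Most of the set was high on replicate 1 in both genotypes. Replicate 1 was the highest array of its genotype in knockout and in wild type for 23 of the 33 genes, 69.7%, against 30.2% of all genes. Among genes with a mean log2 value of at least 6 this held for 13 of 22 members, against 30.2% of all such genes. For 11 genes replicate 1 exceeded the mean of replicates 2 and 3 by over 1 in both genotypes, and for 4 genes (*Ifit1*, *Bst2*, *Usp18* and *Xaf1*) by over 2. *Ifit2* and *Eif2ak2* went the other way and were lowest on replicate 1 in both genotypes, against 15.6% of all genes. Each gene was also set against the median of the others over the 6 arrays, which share their replicate structure. Pearson's r had a median of 0.84 over the 33 genes, was above 0.8 for 19 and below 0 for 4. No test was made of this pattern, since replicate 1 has 1 array per genotype and the grouping was seen in the data.

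**Figure D2:**
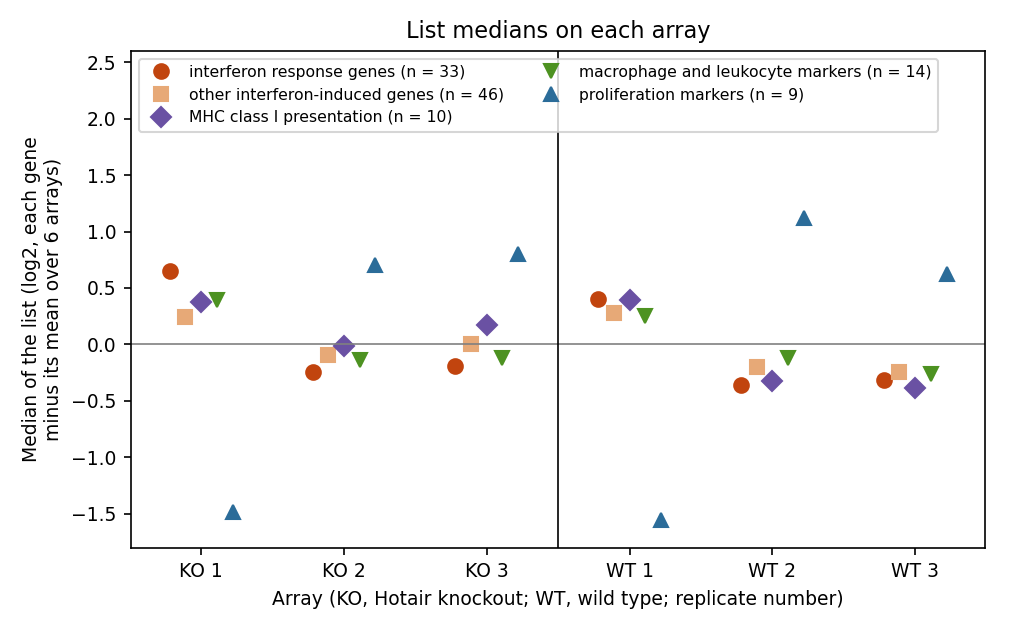
Median of 5 gene lists on each of the 6 arrays (knockout left of wild type), each gene relative to its own mean over 6 arrays on the log2 scale. Interferon response genes stand at 0.65 on knockout array 1 and 0.41 on wild-type array 1 and below 0 on the other 4 arrays, and proliferation markers run the opposite way.

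Other markers moved with replicate 1 as well. Of the 9 measured proliferation markers, 8 were lowest on replicate 1 in both genotypes, against 15.6% of all genes. The median of the 9 was −1.48, 0.71 and 0.80 on knockout arrays 1 to 3. On wild-type arrays 1 to 3 it was −1.56, 1.12 and 0.62. The summed log2 level of the 9 ran from 84.4 to 104.9 in knockout and from 78.2 to 104.7 in wild type. Of 14 measured macrophage and leukocyte markers 10 were highest on replicate 1 in both genotypes, against 30.2% of all genes. The 14 had summed levels of 90.0, 73.7 and 72.3 on knockout arrays and 80.5, 75.8 and 72.8 on wild-type arrays. *Tyrobp*, a signalling adaptor of myeloid cells named after its values were seen, was 9.14 on knockout array 1 and between 4.88 and 5.45 on the other 5 arrays. The lysozyme gene *Lyz2*, named likewise, measured 10.57, 7.55 and 5.98 in knockout against 7.98, 7.22 and 5.30 in wild type. The macrophage gene *Cd68*, named likewise, measured 7.85, 5.25 and 4.99 in knockout against 6.47, 5.20 and 5.47 in wild type. Other defining markers were low on all 6 arrays. *Ptprc*, which marks leukocytes, was at 3.84 to 4.23 in knockout and 3.94 to 4.44 in wild type, and the integrin *Itgam* of myeloid cells was at 3.76 to 4.18 in knockout and 3.83 to 3.87 in wild type. The part of proliferation, leukocyte RNA or RNA quality in the interferon pattern was not tested.

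Among the antiviral effectors, the kinase gene *Eif2ak2* was higher in knockout on every array. It encodes PKR, which senses double-stranded RNA and stops translation. *Eif2ak2* measured 9.04, 9.85 and 9.91 in knockout against 8.05, 8.58 and 8.83 in wild type. The groups did not overlap, and replicate 1 was the lowest array of each. The means were 9.60 ± 0.48 in knockout and 8.49 ± 0.40 in wild type (SD, n = 3 each), a difference of 1.11 ± 0.32 (SE) or 2.16-fold (limma adjusted p = 0.743). The differences within replicate numbers were 0.99, 1.26 and 1.07, and its 2 other probe sets were also higher, by 0.47 and 0.78.

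*Isg20*, an exonuclease that degrades RNA, differed between genotypes on replicates 2 and 3 and not on replicate 1. It measured 8.18, 6.45 and 6.95 in knockout against 8.06, 8.36 and 9.71 in wild type. The groups overlapped through knockout array 1. The difference was −1.52 ± 0.61 (SE; limma adjusted p = 0.743).

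The tetherin gene *Bst2*, whose product holds budding virus at the cell surface, had 1 of the 3 widest ranges over the arrays of all members. It measured 9.38, 6.41 and 7.39 in knockout against 10.14, 7.13 and 7.45 in wild type, high on replicate 1 in both. The difference was −0.51 ± 1.07 (SE), and its sign turned when knockout array 2 (0.14) or wild-type array 1 (0.43) was left out.

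The Ifit proteins bind foreign RNA, and their genes did not move together. *Ifit1* measured 7.75, 6.07 and 5.08 in knockout against 7.48, 4.50 and 4.86 in wild type. *Ifit3* measured 7.28, 6.18 and 6.06 in knockout against 7.0, 5.78 and 6.24 in wild type. Both were highest on replicate 1. *Ifit2* was the reverse, with 7.10, 8.75 and 8.87 in knockout against 6.72, 8.94 and 9.82 in wild type. *Ifit1* and *Ifit3* carried the ISRE core in their windows (above), and 0 of 2 *Ifit2* windows did. A link between element and pattern was not tested. *Eif2ak2*, with an ISRE core after its transcript start, was also lowest on replicate 1 of both genotypes. *Oasl2*, *Ifi35* and *Xaf1*, with none in their windows, were highest on it.

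The remaining effectors had means of at most 6.05. The oligoadenylate synthetase genes, whose products activate an RNA-degrading enzyme, lay at 6.03 to 6.11 in knockout and 5.79 to 6.10 in wild type for *Oas2*, and at 4.37 to 4.66 and 4.24 to 4.67 for *Oas3*. The related *Oasl1* ranged from 5.20 to 5.52 in knockout and from 4.94 to 5.72 in wild type. *Oasl2* followed replicate number, with 5.12 in knockout and 5.25 in wild type on replicate 1 and 3.73 to 4.11 elsewhere. The dynamin-like GTPase genes *Mx1*, which is defective in most laboratory mouse strains, and *Mx2* ranged from 4.03 to 4.56 and from 5.09 to 5.32 in knockout, and from 4.11 to 4.21 and from 5.01 to 5.45 in wild type. *Rsad2*, an enzyme that makes an antiviral nucleotide, lay at 5.91 to 6.18 in knockout and 5.81 to 6.46 in wild type. Over the 13 effectors the median difference was 0.09, with 9 higher and 4 lower.

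**Figure D3:**
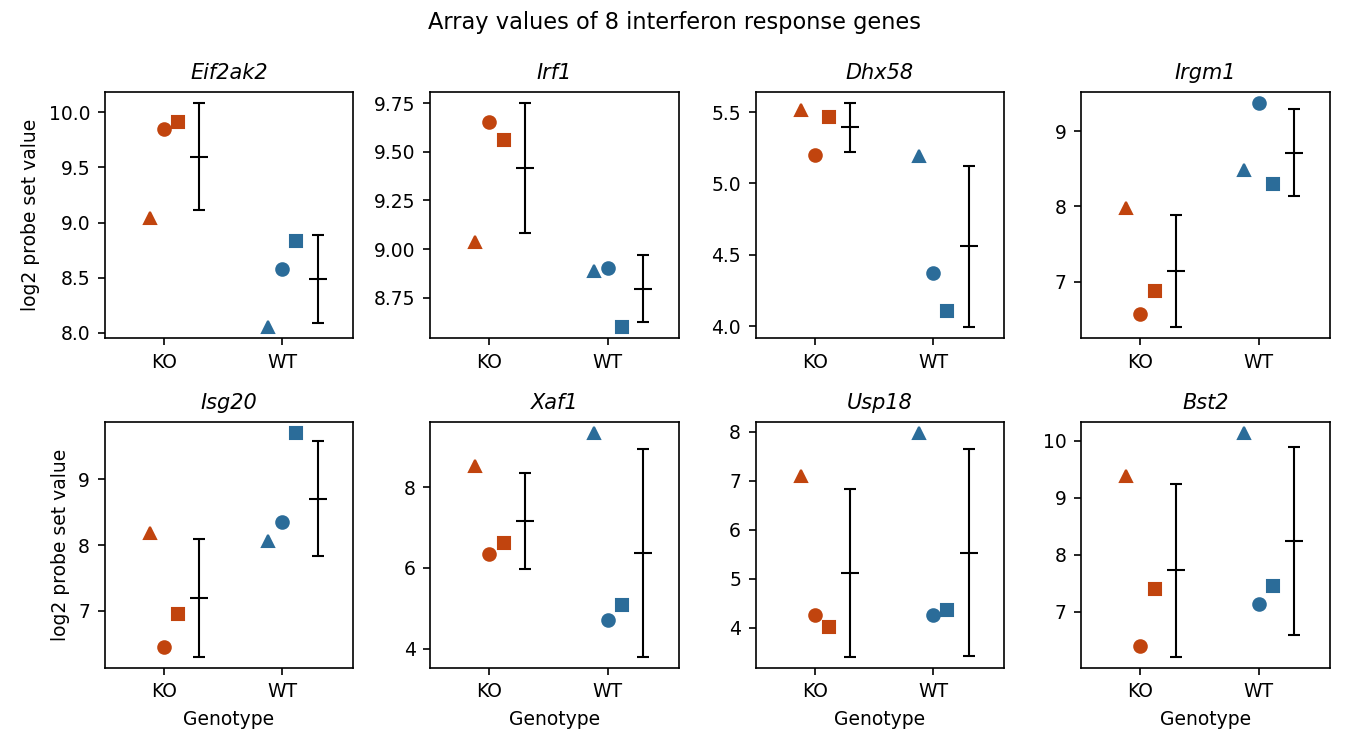
Log2 values of 8 interferon response genes on each array (triangle, circle and square for replicates 1, 2 and 3), knockout left of wild type, with the mean and SD (n = 3) beside them. *Eif2ak2*, *Irf1* and *Dhx58* are higher and *Irgm1* lower in knockout with no overlap, while for *Xaf1*, *Usp18* and *Bst2* the triangles stand far above the other arrays in both genotypes.

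The 3 helicase sensors of viral RNA shared the high replicate 1 and differed in their genotype values. *Dhx58*, a regulator of the other sensors, measured 5.51, 5.20 and 5.46 in knockout against 5.19, 4.37 and 4.11 in wild type. The groups did not overlap, but knockout array 2 and wild-type array 1 nearly met. The difference was 0.83 ± 0.30 (SE; limma adjusted p = 0.743), and its 2 other, dimmer probe sets differed by 0.02 and 0.18. *Ifih1*, the sensor MDA5 of long double-stranded RNA, measured 7.46, 6.73 and 6.85 in knockout against 6.93, 6.12 and 6.43 in wild type. It was higher in knockout at each replicate number, though the groups overlapped (0.52 ± 0.30, SE; limma adjusted p = 0.821). *Ddx58*, the sensor RIG-I, measured 9.06, 6.91 and 7.38 in knockout against 8.78, 7.38 and 7.34 in wild type, with no consistent order.

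Of the 4 transcription factor genes, *Irf1*, a factor induced strongly by interferon gamma, was higher in knockout on every array. It measured 9.03, 9.65 and 9.56 in knockout against 8.89, 8.90 and 8.60 in wild type. The means were 9.42 ± 0.33 in knockout and 8.80 ± 0.17 in wild type (SD, n = 3 each), a difference of 0.62 ± 0.21 (SE; limma adjusted p = 0.743). Within replicate 1 it was only 0.15, against 0.75 and 0.96 within replicates 2 and 3. *Irf7*, which amplifies the production of type I interferon, ranged from 4.87 to 5.50 in knockout and from 4.81 to 6.59 in wild type, highest on wild-type array 1. *Irf9*, the DNA-binding partner of STAT2, measured 8.73, 7.09 and 7.05 in knockout against 8.40, 7.10 and 6.96 in wild type, nearly alike between genotypes at each number. *Stat2* differed by −0.36 ± 0.35 (SE), and its second probe set by 0.05.

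The ISG15 and ubiquitin enzymes held the gene with the clearest split by replicate number. *Usp18*, the protease that removes the ubiquitin-like protein ISG15 and also dampens the receptor, measured 7.10, 4.25 and 4.01 in knockout against 7.98, 4.26 and 4.36 in wild type. Replicate 1 exceeded the mean of the other arrays of its genotype by 2.97 in knockout and 3.68 in wild type. The genotype difference of −0.41 ± 1.31 (SE) was far smaller, and its sign turned without knockout array 2 (0.02), knockout array 3 (0.14) or wild-type array 1 (0.81). *Trim25*, a ubiquitin ligase that activates RIG-I, measured 10.61, 9.08 and 8.92 in knockout against 10.06, 9.70 and 9.73 in wild type. It was higher in knockout on replicate 1 and lower on replicates 2 and 3, a mean of −0.30 ± 0.47 (SE) that turned to 0.01 without knockout array 3. The ADP-ribose enzyme *Parp9* and its partner ligase *Dtx3l* had the same order, at 0.37, −0.31 and −0.48 and at 0.60, −0.46 and −0.50 within replicates 1, 2 and 3. *Parp14*, another enzyme of this family, ranged from 5.03 to 5.99 in knockout and from 4.98 to 5.83 in wild type.

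The interferon-induced GTPases act on the vacuoles of pathogens inside cells, and *Irgm1*, which regulates its relatives, differed from the other 3. *Irgm1* measured 7.98, 6.57 and 6.88 in knockout against 8.48, 9.37 and 8.29 in wild type, with all knockout values below. The means were 7.14 ± 0.74 in knockout and 8.71 ± 0.58 in wild type (SD, n = 3 each), a difference of −1.57 ± 0.46 (SE; limma adjusted p = 0.743). *Igtp* measured 8.21, 6.61 and 6.78 in knockout against 7.70, 6.14 and 6.17 in wild type. It was higher in knockout by 0.52, 0.47 and 0.61 at the replicate numbers, a mean of 0.53 ± 0.61 (SE) with overlapping groups. *Gbp2* measured 7.79, 5.85 and 6.19 in knockout against 7.68, 4.93 and 5.75 in wild type, and its other probe set differed in the same direction (1.09 against 0.49). *Gbp3* ranged from 4.43 to 5.93 in knockout and from 4.14 to 5.07 in wild type. *Irgm1* thus had the ISRE core in its promoter, like *Igtp* and *Gbp2*, and was not high on replicate 1 of wild type.

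The immunoproteasome subunits replace constitutive ones to change the peptides shown to T cells. *Psmb8* measured 7.67, 6.77 and 6.42 in knockout against 7.64, 5.59 and 5.53 in wild type, nearly equal on replicate 1 and higher in knockout on the other 2. The difference was 0.70 ± 0.66 (SE), and its second probe set, at 3.52 to 3.72 in knockout and 3.63 to 3.81 in wild type, differed by −0.08. *Psmb9* measured 6.48, 6.33 and 6.48 in knockout against 6.60, 5.87 and 5.97 in wild type (0.28 ± 0.23, SE).

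*Xaf1*, whose product opposes an inhibitor of cell death, had the widest wild-type spread and probe sets that disagreed. Its representative probe set measured 8.53, 6.33 and 6.62 in knockout against 9.35, 4.70 and 5.08 in wild type. The difference was 0.79 ± 1.36 (SE), and it turned to −0.05 without wild-type array 2. The second probe set measured 9.65, 3.96 and 4.17 in knockout against 3.94, 6.04 and 5.92 in wild type. The 2 probe sets therefore gave opposite genotype differences at each of the 3 replicate numbers. *Ifi35*, an interferon-induced protein, measured 11.42, 9.15 and 9.41 in knockout against 11.60, 9.91 and 9.36 in wild type (−0.30 ± 0.82, SE), and its sign turned without knockout array 2 (0.13) or wild-type array 1 (0.36).

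**Figure D4:**
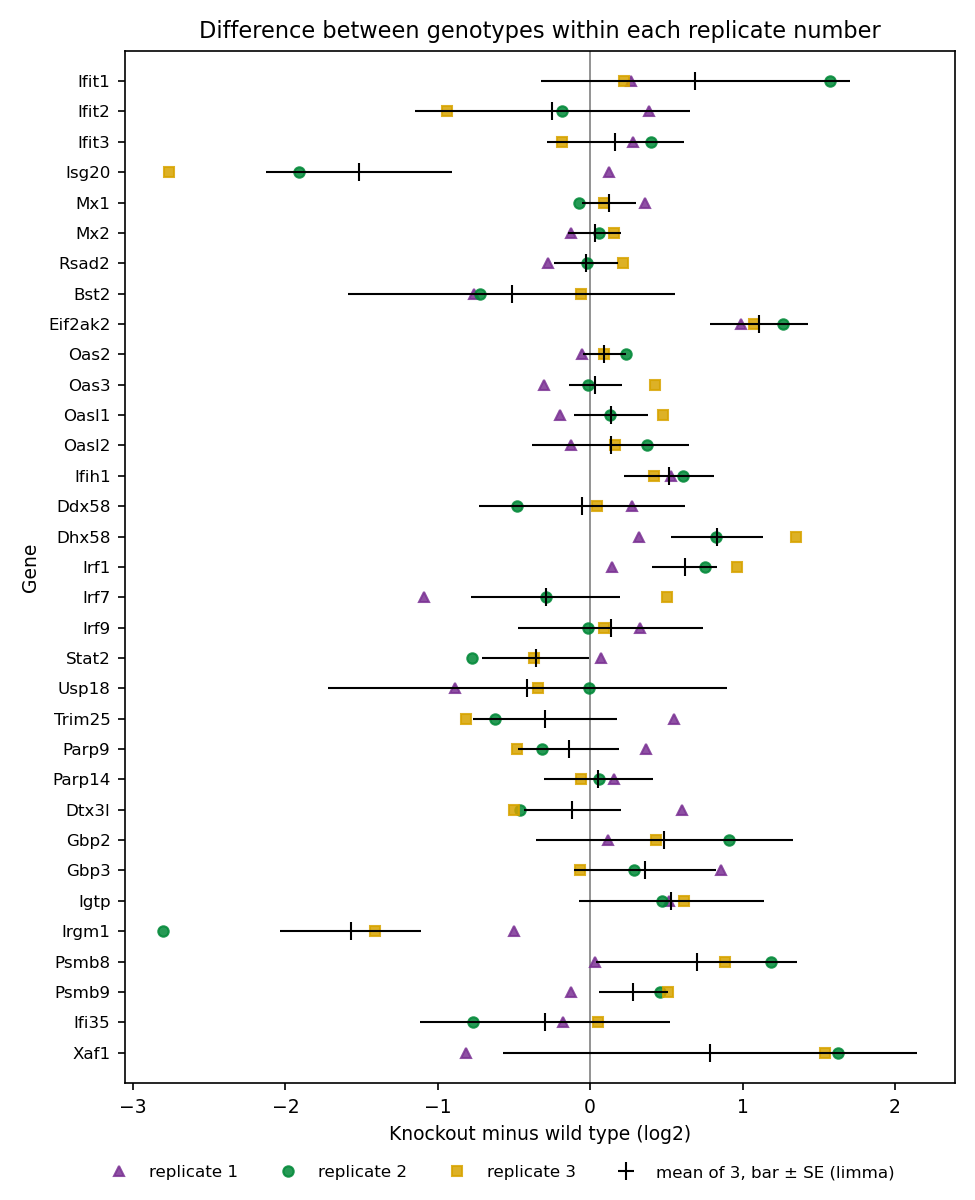
Knockout minus wild-type difference of each of the 33 genes on the log2 scale, within replicate number 1 (triangles), 2 (circles) and 3 (squares), with the mean and limma's SE (line). *Eif2ak2*, *Ifih1* and *Igtp* have 3 close values above 0, and for *Isg20*, *Trim25*, *Parp9*, *Dtx3l* and *Xaf1* the replicate 1 value lies on the other side of 0 from replicates 2 and 3.

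Within replicate numbers, 8 genes were higher in knockout at all 3 numbers (*Eif2ak2*, *Ifih1*, *Igtp*, *Dhx58*, *Irf1*, *Psmb8*, *Gbp2* and *Ifit1*), against 17.1% of all genes. *Irgm1*, *Bst2* and *Usp18* were lower at all 3, against 13.4% of all genes. Blocking on replicate number, limma gave *Eif2ak2* an SE of 0.15, *Igtp* 0.15 and *Ifih1* 0.15, below those without the block, and called 0 members (smallest adjusted p = 0.424).

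Without both replicate 1 arrays, a fit chosen after seeing the data, limma called 8 of the 33 genes, 24.2%, against 14.0% of all genes. Higher in knockout were *Xaf1* (1.58 ± 0.20, SE; adjusted p = 0.0123), *Eif2ak2* (1.17 ± 0.16; 0.0148), *Dhx58* (1.09 ± 0.18; 0.0228), *Psmb8* (1.03 ± 0.18; 0.0248) and *Irf1* (0.86 ± 0.17; 0.0341). Lower were *Irgm1* (−2.11 ± 0.37; limma adjusted p = 0.0261), *Isg20* (−2.34 ± 0.47; 0.034) and *Trim25* (−0.72 ± 0.15; 0.0374). The other probe sets of *Trim25* differed by −0.79 and, in the opposite direction, by 0.29. Among all genes 7.56% were called higher and 6.41% lower. The fit rests on 2 arrays per genotype. Fitted over all probe sets, it called 3 of the 51 of these genes, against 4.08% of all probe sets, 1 of *Eif2ak2* (limma adjusted p = 0.0401) and both of *Xaf1*, in opposite directions (1.58 and −1.92). With array weights over all 6 arrays limma called 5 of the 33, *Eif2ak2*, *Dhx58* and *Irf1* higher and *Irgm1* and *Isg20* lower, against 11.5% of all genes (6.70% higher and 4.85% lower).

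Upstream of these genes, the interferons themselves were dim on every array. The 6 measured ligand genes lay between 3.13 and 5.24 in knockout and between 3.17 and 5.17 in wild type, replicate 1 included, with *Ifna1* at 0.21 ± 0.14 (SE) and *Ifnb1* at −0.18 ± 0.15. None of the 6 was called by limma and 0 had an unadjusted p under 0.05. The receptor chain *Ifnar2* measured 10.04, 10.04 and 10.27 in knockout against 10.36, 8.73 and 8.94 in wild type (0.77 ± 0.44, SE), so the genotypes were close on replicate 1 and apart on the others. Without both replicate 1 arrays it was called higher (1.32 ± 0.17, SE; limma adjusted p = 0.0129), as were 7.56% of all genes. Of the 32 members and other genes named with differences, 17 became called in that fit, against 14.0% of all genes. Most of them were named for a small p in these same arrays, so these shares cannot be compared. The fit was also chosen after seeing the data. *Ifnlr1*, the receptor of lambda interferons, was dim and at −0.23 ± 0.14 (SE). Of 9 receptors and kinases 5 lay higher and 4 lower (median 0.10).

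The other lists of the pathway likewise had 0 genes called over all 6 arrays by limma. The 7 inhibitors of the signal had a median difference of 0.03, with *Ptpn2*, a phosphatase of the receptor kinases, at 0.71 ± 0.50 (SE) and the repressor *Irf2* at 0.20 ± 0.27. The 14 sensing and induction genes had a median of −0.05. *Aim2*, a sensor of cytosolic DNA, measured 3.67, 5.35 and 6.17 in knockout against 3.66, 3.54 and 3.99 in wild type (1.33 ± 0.63, SE), and the kinase *Ikbke* was at −0.64 ± 0.33. Neither list had a gene at an unadjusted p under 0.05.

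Genes of antigen presentation by MHC class I lay higher in knockout in 8 of 10 cases, against 9305 of all 18193 genes. Their median difference was 0.25, but 0.002 within replicate 1, against 0.31 and 0.48 within replicates 2 and 3. *H2-K1*, named after its values were seen, counted as higher (0.14), though 3 of its 4 probe sets were lower. The proteasome activator subunit *Psme1* measured 10.93, 11.32 and 11.35 in knockout against 10.67, 9.96 and 9.98 in wild type (0.99 ± 0.25, SE; limma adjusted p = 0.743). The peptide-trimming enzyme *Erap1* measured 6.56, 6.62 and 6.74 in knockout against 6.20, 6.05 and 6.25 in wild type (0.48 ± 0.13, SE; limma adjusted p = 0.743). These 2 had an unadjusted p under 0.05, against 4.01% of all genes that did and were higher. They and *Tapbp*, named after its values were seen, were the 3 whose knockout values all lay above the wild-type values, against 5.56% of all genes. Without both replicate 1 arrays *Psme1* was called higher (1.36 ± 0.14, SE; limma adjusted p = 0.0091), as were 7.56% of all genes.

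A further 46 interferon-induced genes, 30 higher and 16 lower, had the same median difference as the 33 (0.09). Replicate 1 was highest in both genotypes for 23 of the 46, against 30.2% of all genes. *Ifitm2*, a membrane protein that blocks virus entry, measured 12.56, 12.31 and 12.91 in knockout against 12.05, 11.75 and 11.67 in wild type (0.78 ± 0.21, SE; limma adjusted p = 0.743). *Samhd1*, which degrades the building blocks of DNA, measured 9.51, 10.34 and 10.26 in knockout against 9.32, 9.41 and 9.02 in wild type (0.79 ± 0.27, SE; limma adjusted p = 0.743), though its probe sets ranged from −0.13 to 0.79. Of the 46, 3 had an unadjusted p under 0.05, near the 6.68% of all genes, all higher, these 2 and the chemokine *Ccl5*, named after its values were seen.

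Markers of other cells were read beside these results. The fibroblast proteoglycan *Dcn* was at 3.10 ± 1.08 (SE), with 9 of 12 fibroblast markers higher in knockout. The *Dcn* difference was 0.60, 6.12 and 2.58 within replicates 1, 2 and 3, and its other probe set differed by 0.53. The summed log2 level of the fibroblast markers was 152.2 to 153.6 in knockout and 135.6 to 148.3 in wild type. Of 7 keratinocyte markers the junction gene *Dsp* was at −2.20 ± 0.54 (SE), with a list median of −0.01, and of 7 endothelial markers *Eng* was at −0.88 ± 0.42, with a median of −0.16. The summed levels were 35.7 to 39.4 in knockout and 37.9 to 40.5 in wild type for keratinocyte markers, and 32.1 to 33.9 and 33.9 to 35.7 for endothelial markers. The 14 macrophage and leukocyte markers had a median of 0.12, with *Cd14*, the co-receptor of bacterial lipopolysaccharide, at −1.97 ± 0.61. The 9 proliferation markers had a median of 0.27, with *Rrm2*, a subunit of ribonucleotide reductase, at −0.64 ± 0.38. By limma 0 of these markers were called. At an unadjusted p under 0.05 there were 3 fibroblast genes, all higher, and 1 leukocyte and 1 keratinocyte gene, both lower. Of all genes 4.01% were higher and 2.67% lower at that level. The part of these markers in the genotype values was not tested.

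Outside all lists, and leaving out genes named only by clone or locus, the 5 genes whose values over the 6 arrays were most like the median of the 33 were *Nrros*, *Edc3*, *Rpl38*, *Tmem35a* and *Olig3*, with Pearson's r of 0.997 to 0.999. Such high values arise easily over 6 arrays and many genes, and *Rpl38* had a range of only 0.20 over the arrays. *Tmem35a* measured 5.30, 4.08 and 4.11 in knockout against 5.07, 3.85 and 3.92 in wild type, with replicate 1 highest in both genotypes.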

How the data were processed

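Affymetrix Mouse Genome arrays were used, 1 per sample. The authors deposited log2 values per probe set; the submitters' processing notes name RMA and R 2.11.1. RMA gives all arrays 1 distribution, which hides a change in total RNA and shrinks contrasts among dim probe sets. Depth is not defined for arrays, and precision is set by how many there are. With 3 samples in each group, an exact permutation test could not have gone below 0.1.

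Gene names came from the platform's annotation. It gives 1 gene for 34945 of 45101 probe sets, several for 932 and none for 9160, beside 64 controls, and only those with 1 gene were named. Knockout was set against wild type by lmFit and eBayes of limma 3.58.1 (R 4.3.3). The model held genotype alone, and p-values were adjusted by Benjamini-Hochberg over 18193 genes or 45037 probe sets at 0.05. The code was tested on simulated data.

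Same-numbered arrays deviated together (Pearson's r over genes of 0.51, 0.39 and 0.35), which met the rule set for this check. The labels state no pairing, so the main model left it out and the replicate block was an alternative. Knockout array 2, however, correlated better with wild-type array 3 (0.43), and an apart replicate 1 alone makes the others correlate. The check therefore did not settle whether the numbers pair the arrays.

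The members and lists were chosen with earlier results of these data known. Named with differences were the 10 members of smallest p, the 3 of highest mean and the 3 of largest range, and from each other list the 2 of smallest p, or 1 for markers. Alternatives were the replicate block, leaving out each array, other eBayes priors, a filter at a mean of 6, renormalisation, array weights, averaged probe sets, an ordinary equal-variance test and a threshold of 0.1.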

Additional observations from a re-analysis of the deposited data

How the results depend on the processing

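Over all 6 arrays limma called 0 genes, 0 probe sets and 0 of the 33 members, and the members' median difference was 0.09. With the replicate block these counts were again 0, the median was 0.09, and the block changed no call. Array weights called 2101 genes and 5 members (0 probe sets), and leaving out both replicate 1 arrays, chosen after seeing the data, called 2542 genes, 1836 probe sets and 8 members. A batch term for replicate 1, also chosen after seeing the data, called 0 genes and 0 members (smallest adjusted p = 0.172). Leaving out 1 array gave 0 to 87 genes and 0 to 48 probe sets, with the highest counts without knockout array 1, 0 members, and medians of −0.105 to 0.421. With only genes of mean at least 6 the median was 0.0322 over 22 members. These causes were not tested. Of 223 differences of the 15 named members under the alternatives, 9 turned sign, each on leaving out 1 array, and 13 became called. The ranges on leaving out 1 array were −1.34 to 0.43 for *Bst2*, −1.40 to 0.81 for *Usp18*, −1.01 to 0.36 for *Ifi35*, −0.836 to 0.0126 for *Trim25* and −0.0518 to 2.27 for *Xaf1*, and −0.0547 to 0.38 for the listed repressor *Irf2*. *Irf2* was also at −0.0638 with array weights and −0.19 without both replicate 1 arrays. Dim probe sets near the background of the array limit what differences of *Mx1*, *Oas3* or the interferon genes can show.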
